A study of Canis lupus familiaris with 20 samples.

Results

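The genes described here are those of the non-fibrillar extracellular matrix, its proteoglycans and the enzymes that remodel it, measured in dystrophic and normal muscle of dogs. They were chosen by gene name on the array: names that begin with COL and a number (without COL1A1, COL1A2, COL3A1 and COL5A2), LAMA, LAMB, LAMC, TIMP, MMP, ADAMTS, LOX, FBLN, FBN, THBS or WISP, and a further set of single genes such as SPARC, POSTN, DCN, LUM, BGN, TNC, VCAN, NID1 and GSN. The rule found 79 genes with 93 probes among the 10270 named genes of the array. Of these, 39 genes with 49 probes were bright enough to be tested, among 6120 named genes tested. A gene counted as tested when a probe was well above background, in the channel that held the dog's RNA, on both arrays of at least 2 dogs. The other 40 genes were too dim, and 10 of them were above background on no array. The names FN1, LOX, LAMA2 and CTGF were not found among the gene names of the array files, which does not show that these genes have no probe. Genes listed only under a numbered locus name, CTGF and ELN among them, did not enter by the rule. COL4A3BP, a ceramide transfer protein, entered by its name only.

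Muscle matrix lies around each fibre as a basement membrane of laminins, collagen IV and nidogen, tied to an interstitial mesh of collagen VI, fibrillar collagens, elastic fibres and small proteoglycans. Fibroblasts make most of it, matricellular proteins such as SPARC and periostin regulate how cells attach to it, metalloproteinases cut it, and TIMPs inhibit those enzymes. In Duchenne muscular dystrophy this scaffold is known to thicken as fibres are lost, which is called fibrosis.

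Muscle RNA came from 4 affected dogs, 2 escaper dogs and 4 normal dogs, all 2 years old. The labels give Duchenne muscular dystrophy (DMD), in which dystrophin is absent, for the affected and the escaper dogs alike, and the name escaper is used for dystrophic dogs whose disease stays mild. Every sample was run on 2 canine Agilent arrays with swapped dyes, 20 arrays in all, against a common reference of RNA from 1 normal individual, so every value is a log2 ratio of dog over reference, averaged over the 2 arrays of the dog. Where 1 of the 2 spots was flagged as an outlier, the value is that of the other array alone. The labels name neither the muscle sampled, the mutation nor any treatment, and do not say whether the reference individual is also 1 of the 4 normal dogs. Each of the 5 slides held 2 dogs of 1 group and both escapers shared a slide, so slide and escaper group cannot be told apart.

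The arrays read 30.5% to 60.2% of the 42034 probes well above background, at a median signal of 1.67 to 5.28 times background. Between 15 and 156 probes were saturated on an array. The Cy5 array of affected 4 had the highest share and the highest ratio. Across the 39 matrix genes, which are not independent replicates, the log2 ratios of both dye orientations had a correlation of 0.784 in normal 3, the lowest, to 0.964 in escaper 2, the highest. Over all tested probes affected 4 was lowest, at 0.627. Of the 11 markers of muscle fibres on the array, each was above background on at least 1 array and 10 were tested. Affected 1 and escaper 2 stood apart from the other dogs in the number of genes at which each was the highest of 10 dogs, 31.1% and 25.5% of all named genes. Values are therefore given for each dog, and counts also without these dogs.

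The results turn on 9 probes of 7 genes, each a DNA oligonucleotide of 60 bases on the array. The last 30 bases of each are printed 5′ to 3′, as the scanner files give them, with the position of the whole probe. The genome build of these positions, and whether a probe lies in an exon or a UTR, are not given in the sources used here. Capitals mark AATAAA, the hexamer known as the polyadenylation signal near the 3′ end of transcripts.
GSN, chr11:77295425-77295484, strand +: tggaaaattgaagtcAATAAAagcttttga
WISP2, chr24:35146436-35146495, strand +: gtcagaaaacaagcctgagagtgatttgtt
LAMB1, brightest probe, chr18:15686008-15686067, strand +: agctacattttaagatcttcaaAATAAAac
LAMB1, second probe, chr18:15673398-15673457, strand +: attgtctgacacagcttcactaagcaacag
COL6A1, brightest probe, chr31:41634622-41634681, strand +: ccatggcctcgggccacggggctcagcacg
COL6A1, second probe, chr31:41634013-41634072, strand +: gcagggcgccacggcggcggccatcgaaaa
COL8A1, chr33:9395798-9395857, strand +: ggaccaggcatctgggagtgcggtgctgct
TIMP1, chrX:41152713-41152772, strand +: cgtctttctttatccaaaacaatgaaataa
COL12A1, chr12:39724404-39724463, strand −: attattattattttttgtacatgtactctc

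GSN, WISP2, LAMB1, COL8A1, TIMP1 and COL12A1 are shown because all 6 dystrophic dogs lay above all 4 normal dogs at them. For COL12A1 no normal array was above background, so that order is uncertain. COL19A1 also met this criterion, and its probe is not printed. The probes of LAMB1 and COL6A1 are shown because probes of the same gene gave different sizes. AATAAA was searched in all probes on the strand as given, where 5.79% of the 42034 probes held it, and on the other strand as TTTATT, where 2.97% did. Among the 49 tested matrix probes 8.16% held AATAAA, against 8.17% of all 16008 tested probes. The match is a description of the letters only. The brightest LAMB1 probe, with AATAAA from base 53, lay 12610 bases from the second probe. The brightest probe differed by 1.65 on the log2 scale between dystrophic and normal dogs and was above background on 20 arrays, while the second probe differed by 0.19 and was above background on 7. The brighter and the second COL6A1 probe differed by 1.76 and 0.22, and lay 609 bases apart. Their content of G and C was 73.3% and 66.7%, against a median of 45.0% over all probes of the array.

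In whole muscle, fewer cells of a type and less RNA per cell cannot be told apart, which holds for every value below. Across all 6 dystrophic dogs, most matrix genes lay above the level of normal dogs, and none passed the test corrected for all probes. The difference of dystrophic and normal dogs was positive in 37 of the 39 tested genes, with a median of 0.68 on the log2 scale, beside a median of 0.04 over all named genes. With limma, 0 of 39 had an adjusted p under 0.05, beside 0.098% of all named genes, and 17 of the 16008 probes passed, 7 higher and 10 lower. At an unadjusted limma p under 0.05, 14 matrix genes (35.9%) were higher, beside 8.89% of all named genes, and 0 were lower, beside 9.84%. All 6 dystrophic dogs lay above all 4 normal dogs in 7 genes (17.9%), beside 4.12% of all named genes. In 9 more genes 5 of the 6 did, beside 6.45% of all named genes. The 7 genes were GSN, WISP2, LAMB1, COL8A1, TIMP1, COL12A1 and COL19A1. At COL12A1 this order is uncertain, as no normal array read it above background. A gene could pass the filter through the dystrophic dogs alone. Of the 39, 14 did not have 2 normal dogs read on both arrays, so these counts are a description and not support for a common direction. Over the 23 genes above background on every array, a fit of such probes alone gave a median of 1.35.

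**Figure D1:**
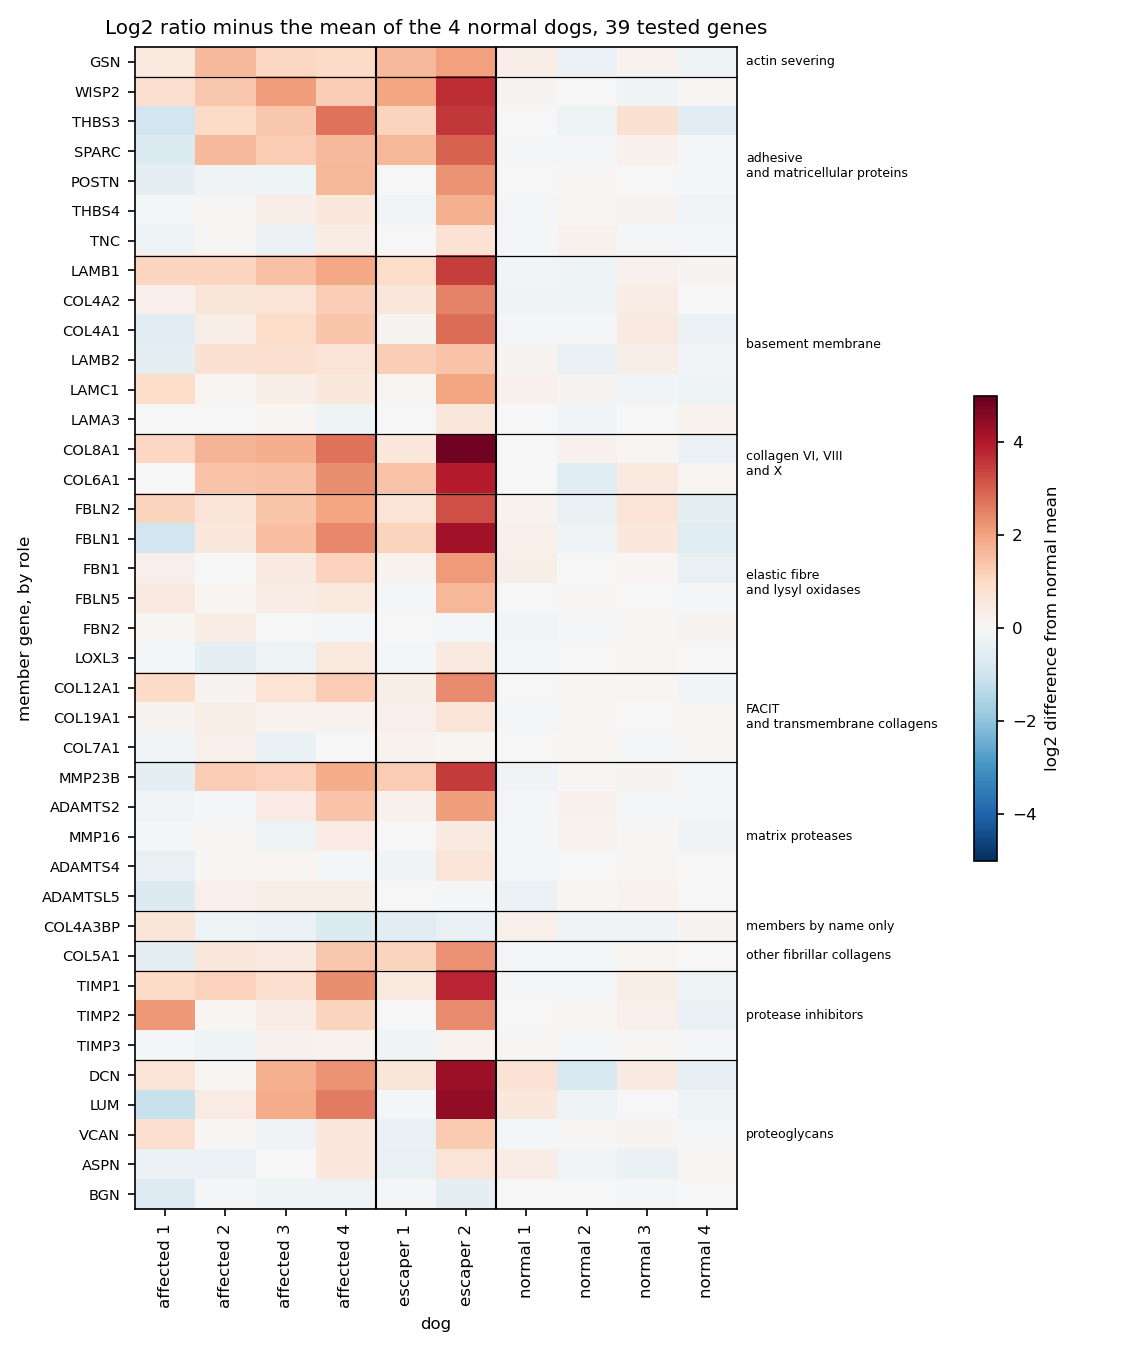
Log2 ratio of each of the 39 tested matrix genes (rows, grouped by role) in each of 10 dogs (columns), after subtracting the mean of the 4 normal dogs; red is above and blue below that mean, on a scale from -5 to 5. Escaper 2 is the reddest column, with a median of 2.08, while affected 1 mixes red and blue and escaper 1 is pale, with medians of −0.04 and 0.16.

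The dystrophic dogs did not share 1 level of matrix expression. The median of the 39 genes, relative to the mean of normal dogs, was −0.04 in affected 1, 0.26 in affected 2, 0.39 in affected 3, 1.10 in affected 4, 0.16 in escaper 1 and 2.08 in escaper 2. Escaper 2 was the highest of 10 dogs in 32 of the 39 genes, beside 25.5% of all named genes, and lay above all normal dogs in 35, beside 41.5%. Affected 1 was the lowest of 10 dogs in 13, beside 18% of all named genes. It lay below all normal dogs in 17 genes, beside 32.6% of all named genes, and above all of them in 13, beside 44.7%. Without escaper 2, the median of dystrophic minus normal dogs was 0.40, with 30 of 39 positive and 13 higher at an unadjusted p under 0.05, beside 8.37% of all named genes. Without affected 1 it was 0.79, with 37 positive and 19 higher at that p, beside 11.2%. With affected 4 represented by its Cy3 array alone, a choice made after seeing the data, 11 of the 38 genes with a value in each dog were higher at an unadjusted p under 0.05, beside 8.28%, and the dye effect no longer cancels in that dog.

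**Figure D2:**
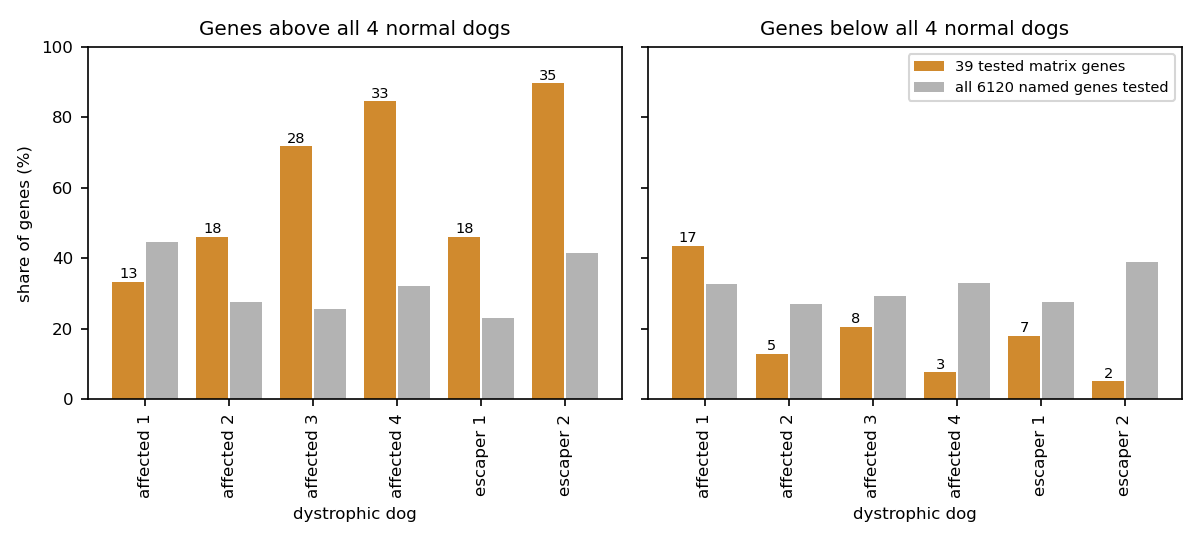
Share of genes, in percent, at which each dystrophic dog lay above all 4 normal dogs (left) or below all 4 (right), for the 39 tested matrix genes (orange, with the count above each bar) and all 6120 named genes tested (grey). Escaper 2 lay above all normal dogs in 35 matrix genes and affected 4 in 33, while affected 1 did in 13 and lay below all normal dogs in 17.

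Adhesive and matricellular proteins comprised 6 tested genes, all positive in dystrophic minus normal dogs with a median of 0.96. Of these, 2 were higher at an unadjusted p under 0.05, beside 8.89% of all named genes. WISP2, a secreted member of the CCN family, was at 1.24, 1.77, 2.50 and 1.65 in affected dogs, at 2.38 and 4.11 in escapers, and at 0.57, 0.39, 0.24 and 0.47 in normal dogs. No dystrophic dog overlapped with a normal dog, and escaper 2 was the highest. Its means were 2.27 ± 1.02 in dystrophic dogs (SD, n = 6) and 0.42 ± 0.14 in normal dogs (SD, n = 4), a difference of 1.86 (SE 0.46, limma adjusted p = 0.118), or 3.62-fold. Without escaper 2 it was 1.49 and passed (limma adjusted p = 0.0356), and with the deposited value table it was 2.28 and passed (limma adjusted p = 0.0344). WISP2 passed under only 3 of 23 alternatives run for this comparison. Affected minus normal dogs differed by 1.37 (SE 0.36, limma adjusted p = 0.244). WISP2, with LAMB1 and COL8A1, passed when affected and normal dogs were fitted without the escapers, at limma adjusted p of 0.0475 for WISP2, 0.0362 for LAMB1 and 0.0450 for COL8A1. For affected minus normal dogs, WISP2 passed under 4 of 23 alternatives, LAMB1 under 3 of 19 and COL8A1 under 3 of 23.

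SPARC, which binds collagen and calcium, was at −2.11, 0.17, −0.16 and 0.20 in affected dogs, at 0.21 and 1.51 in escapers, and at −1.52, −1.48, −1.24 and −1.52 in normal dogs. Affected 1 lay below every normal dog while the other 5 dystrophic dogs lay above them all. The difference of dystrophic and normal dogs was 1.41 (SE 0.53, limma adjusted p = 0.214), and without affected 1 it was 1.82 and passed (limma adjusted p = 0.0352). SPARC passed under only 2 of 22 alternatives run for this comparison. The SPARC probe was saturated in the dog's channel on 4 arrays and in at least 1 channel on all 20, so the size of its differences is uncertain, and a dimmer probe of the gene differed by 0.76. POSTN, the gene of periostin, was above background on 2 affected arrays, 2 escaper arrays and 0 normal arrays. It was at −1.23, −0.95, −0.99 and 0.87 in affected dogs, at −0.75 and 1.48 in escapers, and at −0.75, −0.72, −0.79 and −0.86 in normal dogs. Affected 4 and escaper 2 were the 2 high dogs and the only ones read above background, so the values of the other 8 dogs have no order (limma adjusted p = 0.614 in dystrophic minus normal dogs). The thrombospondins THBS3 and THBS4, multi-subunit glycoproteins of matrix, differed by 1.46 (limma adjusted p = 0.315) and 0.42 (limma adjusted p = 0.518), and tenascin C, TNC, by 0.10 (limma adjusted p = 0.812). THBS3 stood at −2.14 in affected 1, below all normal dogs, and at 2.35 in escaper 2.

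**Figure D3:**
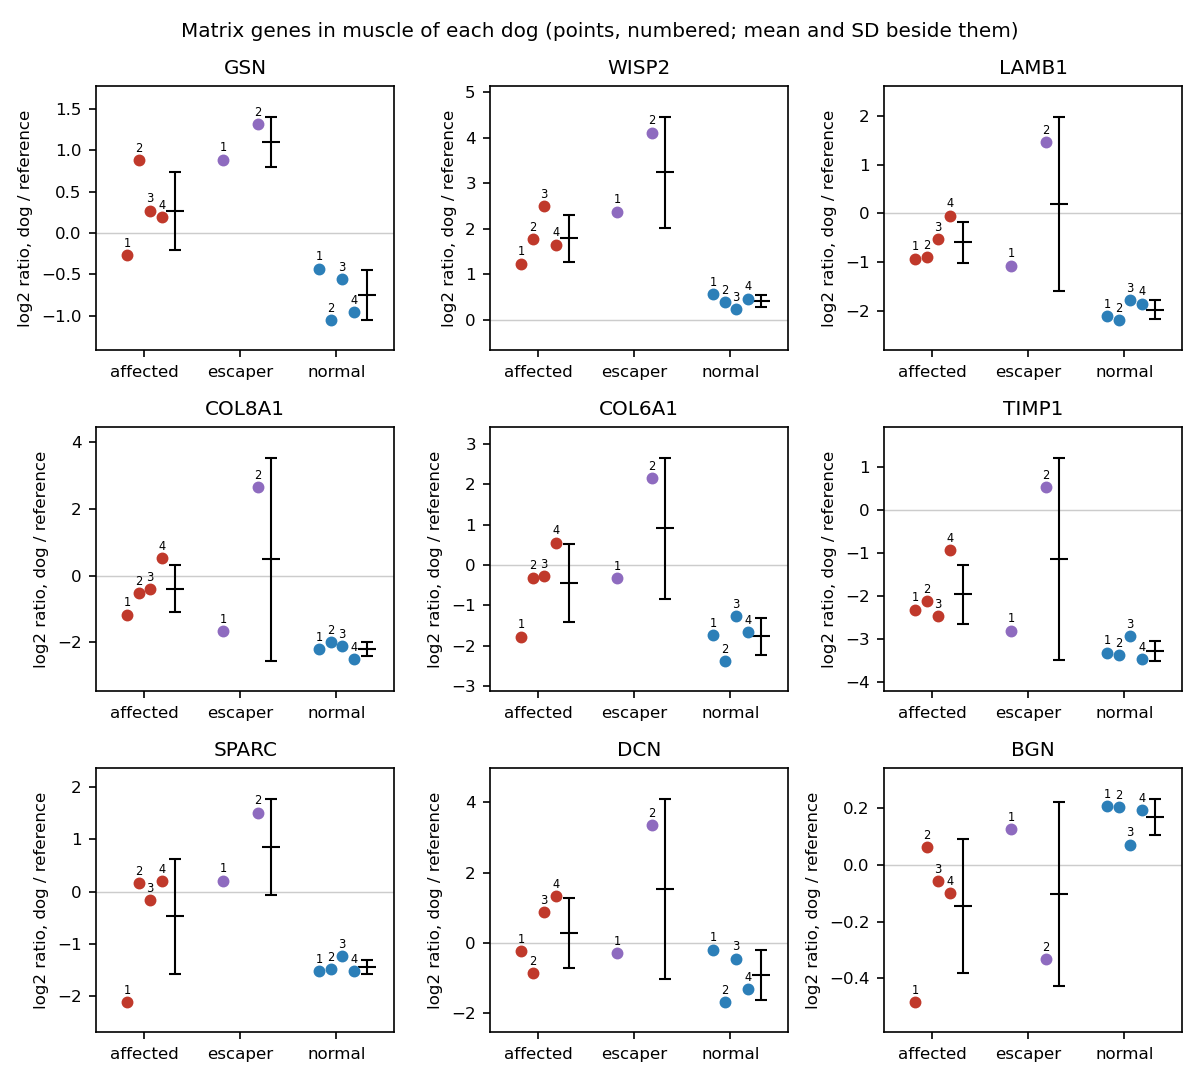
Log2 ratio of dog over reference (vertical axis) of 9 matrix genes in affected, escaper and normal dogs; each numbered point is a dog and the black bar beside each group is its mean with SD. GSN, WISP2, LAMB1, COL8A1 and TIMP1 show no overlap of dystrophic with normal dogs, COL6A1, SPARC and DCN show overlap, and BGN is lower in all 4 affected dogs than in the normal dogs.

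Basement membrane genes comprised 6 tested of 17 on the array, all positive with a median of 0.79. Of these, 3 were higher at an unadjusted p under 0.05, beside 8.89% of all named genes. LAMB1, the laminin beta 1 chain, was at −0.93, −0.89, −0.52 and −0.04 in affected dogs, at −1.07 and 1.47 in escapers, and at −2.11, −2.19, −1.79 and −1.85 in normal dogs. Every dystrophic dog lay above every normal dog, with escaper 1 the nearest. Means were −0.33 ± 0.96 in dystrophic dogs (SD, n = 6) and −1.98 ± 0.20 in normal dogs (SD, n = 4), a difference of 1.65 (SE 0.44, limma adjusted p = 0.130), or 3.14-fold. Without escaper 2 the difference was 1.29 and passed (limma adjusted p = 0.0334), the 1 pass among 19 alternatives. Averaged over both LAMB1 probes it was 0.92. The brightest LAMB1 probe was flagged on 5 arrays, so the dogs concerned rest on 1 array each, where the dye effect does not cancel. LAMB2, the beta 2 chain found at the neuromuscular junction, differed by 0.74 (SE 0.32, limma adjusted p = 0.260). Affected 1 stood at −0.74, below all normal dogs, and the other 5 dystrophic dogs lay from 0.44 to 1.16, above the normal range of −0.57 to 0.06. Without affected 1 the difference of LAMB2 was 0.99 and passed (limma adjusted p = 0.0490).

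COL4A1 and COL4A2 encode the chains that form the common collagen IV network. Their probes lay 308932 bases apart on chromosome 22, on opposite strands. COL4A2 differed by 0.97 (SE 0.38, limma adjusted p = 0.230) with 5 of 6 dystrophic dogs above all normal dogs, and COL4A1 by 0.85 (SE 0.53, limma adjusted p = 0.417) with 3 of 6. Escaper 2 was the highest in both, at 1.06 for COL4A2 and 1.51 for COL4A1, and the other dystrophic dogs stood from −1.16 to −0.20 and from −1.81 to 0.10. LAMC1, the laminin gamma 1 chain, differed by 0.66 (limma adjusted p = 0.322) at its brightest probe, and by 0.22 and 0.50 at its other tested probes. LAMA3, a chain of epithelial laminin, differed by 0.08 (limma adjusted p = 0.802). Of the 11 untested genes, LAMA4, a laminin chain of vessels, was read on both arrays of escaper 2, and NID1, which links laminin to collagen IV, on 1 escaper array.

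Of 4 genes of collagens VI, VIII and X, 2 were tested. Both were positive and at an unadjusted p under 0.05, beside 8.89% of all named genes. COL8A1, the collagen VIII alpha 1 chain, was at −1.17, −0.51, −0.39 and 0.53 in affected dogs, at −1.66 and 2.65 in escapers, and at −2.20, −2.0, −2.12 and −2.50 in normal dogs. The groups did not overlap, and the 2 escapers were the lowest and the highest of the dystrophic dogs. The difference was 2.11 (SE 0.69, limma adjusted p = 0.172), or 4.32-fold, the largest of the 39 genes. COL6A1, a chain of the collagen VI that anchors muscle fibres to the surrounding mesh, was at −1.77, −0.32, −0.28 and 0.55 in affected dogs, at −0.32 and 2.15 in escapers, and at −1.74, −2.38, −1.27 and −1.66 in normal dogs. Affected 1 lay among the normal dogs and the other 5 above them. The difference was 1.76 (SE 0.60, limma adjusted p = 0.182) at its brightest probe. COL6A3, another chain of collagen VI, was above background on 1 affected array, both arrays of escaper 2 and 0 normal arrays, and was not tested.

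Among the FACIT and transmembrane collagens, which sit on the surface of fibrils or in cell membranes, and COL7A1, grouped with them here, 3 of 5 genes were tested. COL12A1 was at 0.52, −0.31, 0.24 and 0.82 in affected dogs, at −0.15 and 1.94 in escapers, and at −0.44, −0.35, −0.36 and −0.58 in normal dogs. In these values all dystrophic dogs lay above all normal dogs, affected 2 by the least. The probe was read on 6 of 8 affected arrays, 2 of 4 escaper arrays and 0 of 8 normal arrays. It passed the filter through dystrophic dogs alone, so the order of the lowest dystrophic dogs and the normal dogs is uncertain. The mean signal of affected dogs was 1.64-fold that of normal dogs (limma adjusted p = 0.477), and that of escapers 2.49-fold (limma adjusted p = 0.220). Such folds were taken from the channel of the dog after loess and Aquantile normalization. Arrays not above background entered the brighter group at their own signal. Each array of the dim group was set at the higher of its own signal and the lowest signal read above background. Its own signal was the higher for COL12A1, VCAN and ADAMTS2. These folds are therefore ratios of means and not minimum folds. The limma p beside each, also for VCAN and ADAMTS2, is that of the log2 ratios of dog over reference, and the folds themselves were not tested. COL19A1 also showed no overlap, with a difference of 0.28 (SE 0.12, limma adjusted p = 0.260) that came to 1.21-fold. COL7A1, of the anchoring fibrils of skin, was read on 3 affected, 3 escaper and 0 normal arrays (limma adjusted p = 0.985 in dystrophic minus normal dogs). COL5A1, the 1 tested member among other fibrillar collagens, differed by 0.87 (SE 0.42, limma adjusted p = 0.310), with affected 1 at −1.25 below all normal dogs and the other 5 dystrophic dogs from −0.29 to 1.53, above the normal range of −0.82 to −0.65.

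Elastic fibre genes and lysyl oxidases comprised 6 tested of 9, all positive with a median of 0.59. Of these, 1 was higher at an unadjusted p under 0.05, beside 8.89% of all named genes. FBLN2, a fibulin of elastic fibres and basement membranes, was at −0.22, −0.70, 0.07 and 0.63 in affected dogs, at −0.66 and 1.88 in escapers, and at −1.17, −1.70, −0.66 and −1.79 in normal dogs. Affected 2 lay just below normal 3, and the other 5 dystrophic dogs lay above all normal dogs, escaper 1 by little. The difference was 1.5 (SE 0.48, limma adjusted p = 0.163), and 0.49 at a dimmer probe. FBLN1 differed by 1.47 (limma adjusted p = 0.354) at its brightest probe and by 0.38 at another, with affected 1 at −1.81, below all normal dogs, and escaper 2 at 3.37. FBN1, the main fibrillin of microfibrils, differed by 0.68 (limma adjusted p = 0.365). FBLN5, needed for elastic fibre assembly, was read on 6 affected, 2 escaper and 0 normal arrays (limma adjusted p = 0.654 in affected minus normal dogs). FBN2 and the lysyl oxidase LOXL3, which crosslinks collagen and elastin, differed by 0.05 (limma adjusted p = 0.861) and 0.01 (limma adjusted p = 0.991).

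Of 5 tested proteoglycans 4 were positive in dystrophic minus normal dogs, with a median of 0.37 over all 5, and BGN was 1 of the 2 matrix genes with a negative difference. LUM and DCN, the small leucine-rich proteoglycans lumican and decorin that bind collagen fibrils, lay 57051 bases apart on chromosome 15 on the same strand. DCN was at −0.23, −0.85, 0.88 and 1.33 in affected dogs, at −0.28 and 3.36 in escapers, and at −0.18, −1.67, −0.44 and −1.32 in normal dogs. Affected 3, affected 4 and escaper 2 lay above all normal dogs, and the other 3 lay among them. The difference was 1.61 (SE 0.72, limma adjusted p = 0.278). LUM was at −1.78, −0.29, 1.18 and 1.91 in affected dogs, at −0.80 and 3.76 in escapers, and at −0.18, −0.94, −0.68 and −0.96 in normal dogs. The same 3 dogs were the high ones, and affected 1 was below all normal dogs. LUM differed by 1.35 (SE 0.91, limma adjusted p = 0.445), and its 3 probes gave 1.35, 1.26 and 1.02.

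BGN, the gene of biglycan, a proteoglycan of the muscle cell surface and matrix, was at −0.48, 0.06, −0.06 and −0.10 in affected dogs, at 0.13 and −0.33 in escapers, and at 0.21, 0.20, 0.07 and 0.19 in normal dogs. Each affected dog lay below each normal dog, and escaper 1 lay among the normal dogs. The difference was −0.30 (SE 0.14, limma adjusted p = 0.281) in dystrophic dogs and −0.31 (limma adjusted p = 0.447) in affected dogs. VCAN, the large proteoglycan versican, was read on 5 affected arrays, 2 escaper arrays and 0 normal arrays. Its mean signal in escapers was 1.39-fold that of normal dogs (limma adjusted p = 0.546). Escaper 2 was at 0.55, while escaper 1 was at −1.12, below the normal dogs at −0.88, −0.72, −0.62 and −0.88. The fold therefore rested on escaper 2. ASPN, asporin, differed by 0.04 (limma adjusted p = 0.942), and FMOD, fibromodulin, was read on 1 of 20 arrays and not tested. COL4A3BP, the member by name, was the second gene with a negative difference, at −0.25 (SE 0.23, limma adjusted p = 0.582).

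Genes named MMP or ADAMTS, grouped as matrix proteases, were mostly dim, with 5 of 23 tested, all 5 positive with a median of 0.09. ADAMTS-like genes, ADAMTSL5 among those tested, are in these counts by name and are not themselves proteases. MMP23B, a membrane-bound metalloproteinase, was at −1.16, 0.53, 0.47 and 1.16 in affected dogs, at 0.59 and 2.81 in escapers, and at −0.86, −0.62, −0.55 and −0.75 in normal dogs. Affected 1 lay below all normal dogs and the other 5 dystrophic dogs above them. The difference was 1.43 (SE 0.58, limma adjusted p = 0.236). ADAMTS2, which trims the amino end of procollagens, was read on 5 affected, 4 escaper and 0 normal arrays. Its mean signal in escapers was 2.13-fold that of normal dogs (limma adjusted p = 0.279). Escaper 2 was at 1.69, while escaper 1 at −0.186 was level with normal 2 at −0.187. ADAMTS4, an aggrecanase, ADAMTSL5 and the membrane-type MMP16 differed by 0.03, 0.03 and 0.09. The gelatinases MMP2 and MMP9 and the macrophage elastase MMP12 were read on both arrays of escaper 2 and on 0 normal arrays, and were not tested.

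All 3 inhibitors of metalloproteinases were tested. TIMP1, the inducible member, was at −2.33, −2.13, −2.48 and −0.95 in affected dogs, at −2.81 and 0.52 in escapers, and at −3.32, −3.38, −2.95 and −3.48 in normal dogs. No dystrophic dog overlapped with the normal dogs, and escaper 1 lay nearest to them. The TIMP1 probe was flagged on 4 arrays, so the dogs concerned rest on 1 array each, where the dye effect does not cancel. Means were −1.69 ± 1.26 in dystrophic dogs (SD, n = 6) and −3.28 ± 0.23 in normal dogs (SD, n = 4), a difference of 1.59 (SE 0.57, limma adjusted p = 0.201), or 3.01-fold. TIMP2, which also takes part in activating MMP2, was at 1.24, −0.85, −0.58 and 0.16 in affected dogs, at −0.93 and 1.44 in escapers, and at −0.98, −0.83, −0.70 and −1.27 in normal dogs. Here affected 1 was, with escaper 2, a high dog, unlike in SPARC, LUM or MMP23B. The difference was 1.02 (SE 0.48, limma adjusted p = 0.296). TIMP3, which stays bound to matrix, differed by 0.01 (limma adjusted p = 0.975).

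GSN, gelsolin, which severs and caps actin filaments and also circulates in a secreted form, had the smallest p of the 39 genes between dystrophic and normal dogs. It was at −0.27, 0.88, 0.27 and 0.19 in affected dogs, at 0.89 and 1.32 in escapers, and at −0.43, −1.05, −0.56 and −0.95 in normal dogs. The groups did not overlap, with affected 1 the nearest to the normal dogs. The GSN probe was flagged on 1 array, so 1 dog rests on its other array alone. Means were 0.55 ± 0.58 in dystrophic dogs (SD, n = 6) and −0.75 ± 0.30 in normal dogs (SD, n = 4), a difference of 1.29 (SE 0.29, limma adjusted p = 0.106). The probe was saturated in the dog's channel on 10 of 20 arrays and in at least 1 channel on all 20, and a saturated spot understates its signal, so the size of every GSN difference and its rank by p are uncertain. GSN passed without affected 1 (difference 1.46, limma adjusted p = 0.0377) and with the deposited value table (1.25, limma adjusted p = 0.0482). These were the only 2 of 20 alternatives under which it passed.

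**Figure D4:**
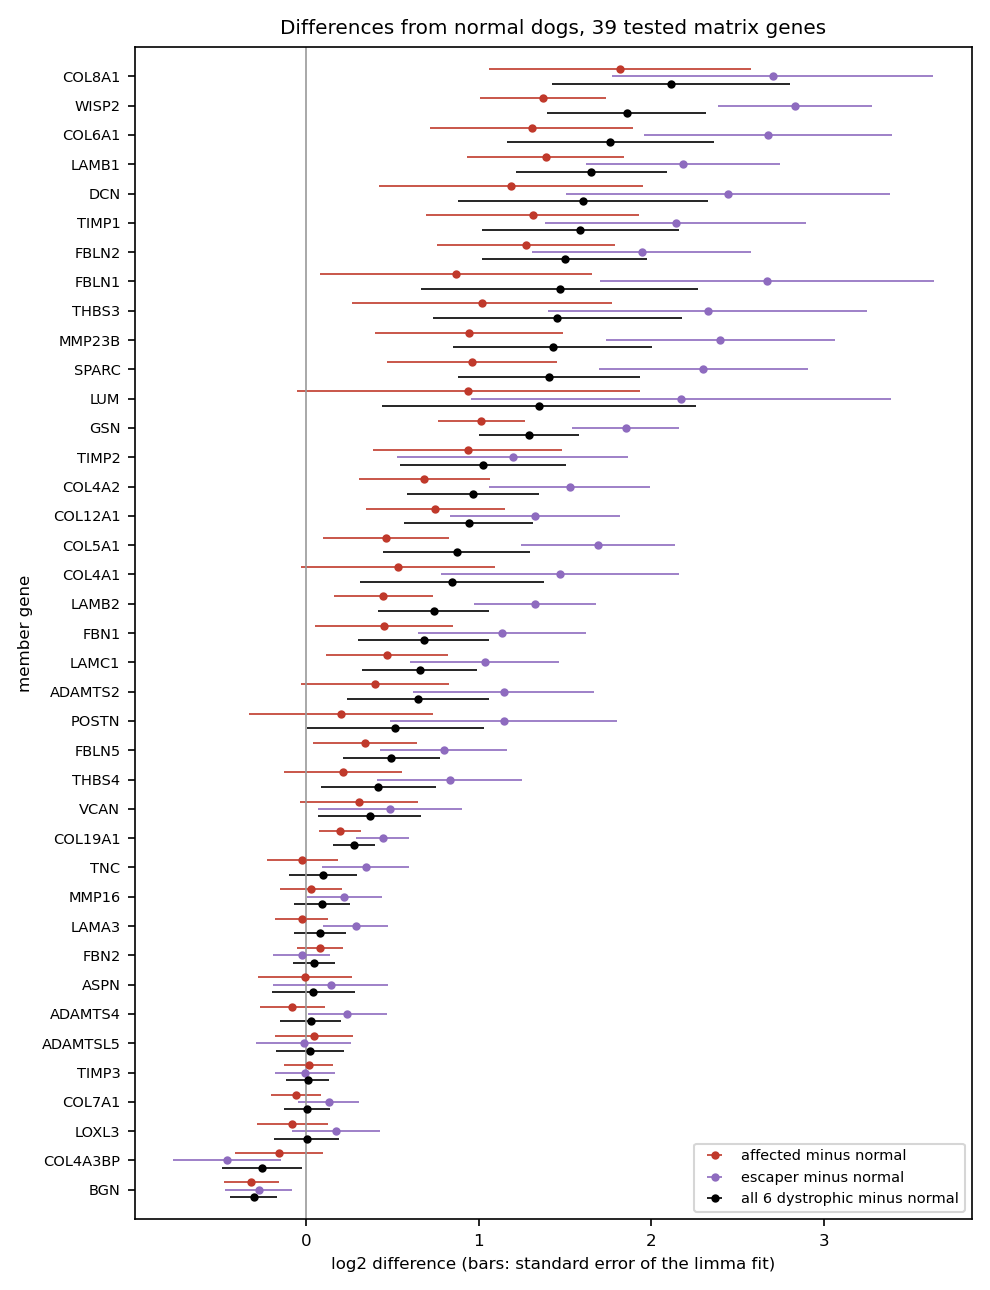
Log2 difference from normal dogs (horizontal axis) of the 39 tested matrix genes for affected dogs, escaper dogs and all 6 dystrophic dogs; points are estimates and bars the standard error of the limma fit. COL8A1 stands at the top with 2.11 for all dystrophic dogs, and BGN and COL4A3BP are below 0 in all 3 comparisons.

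Affected and normal dogs were compared to ask how muscle of the usual course differs from healthy muscle. The difference was positive in 31 of 39 genes with a median of 0.45, beside 0.05 over all named genes. With limma, 0 of 39 passed, beside 0.0163% of all named genes, the smallest adjusted p being 0.230 for GSN, at a difference of 1.01. At an unadjusted p under 0.05, 5 genes were higher, beside 6.03% of all named genes, and 0 lower, beside 7.01%. These were GSN, WISP2, LAMB1, FBLN2 and COL8A1. Affected dogs lay above normal dogs without overlap in 8 genes, beside 6.13% of all named genes. They lay below them in 1, BGN. The share of all named genes in that direction was not counted, so this is a description only. The 8 were the 7 named above for all dystrophic dogs and FBLN5. At COL12A1 and FBLN5 no normal array was above background, so the order there is uncertain. Without affected 4 the median was 0.24 and 3 genes were higher at an unadjusted p under 0.05, beside 4.46% of all named genes. Without affected 1 the median was 0.53 and 11 were, beside 6.45%.

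The comparison of escaper with normal dogs asked how dystrophic muscle of mild course differs from healthy muscle. The median difference of the 39 genes was 1.15, beside 0.0046 over all named genes, and 34 were positive. With limma, 0 passed, beside 0% of all named genes, the smallest adjusted p of a matrix gene being 0.179, shared by WISP2 at 2.83 (SE 0.45) and GSN at 1.85 (SE 0.31). At an unadjusted p under 0.05, 19 genes were higher, beside 9.8% of all named genes, and 0 lower, beside 9.31%. Both escapers lay above all 4 normal dogs in 18 genes, beside 14.6% of all named genes. They lay below them in 1, COL4A3BP, with no share of all named genes counted for that direction. The genes above included COL12A1, ADAMTS2 and COL7A1, where no normal array was above background, so the order there is uncertain. At ADAMTS2 escaper 1 was level with normal 2. The comparisons of affected, escaper and all dystrophic dogs share the same 4 normal dogs. COL5A1 differed by 1.69, LAMB2 by 1.33, SPARC by 2.30 and LAMB1 by 2.18, each at limma adjusted p = 0.189. The escapers differed from each other: without escaper 2 the median was 0.16 and 4 genes were higher at an unadjusted p under 0.05, beside 1.94% of all named genes. Without escaper 1 it was 2.08 and 30 were, beside 21.4%, with 27 matrix genes and 3920 of the 16008 probes past the adjusted threshold in a fit that takes the spread of escaper 2 from the other groups. Relative to the normal mean, escaper 1 and escaper 2 stood at 1.63 and 2.07 for GSN, at 1.24 and 1.41 for LAMB2, at 1.96 and 3.69 for WISP2, at 0.54 and 4.86 for COL8A1, and at −0.11 and 4.45 for LUM. GSN and LAMB2 were the closest of these between the 2 dogs and LUM the farthest apart.

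The comparison of escaper with affected dogs asked whether the mild course goes with another level of matrix genes. The median difference was 0.67, beside −0.03 over all named genes, and 35 of 39 were positive. With limma, 0 passed, beside 0% of all named genes, with a smallest adjusted p of 0.800, and 4 genes were higher at an unadjusted p under 0.05, beside 3.06%, while 0 were lower, beside 2.6%. The 4 were WISP2 at 1.46 (SE 0.45), COL5A1 at 1.23 (SE 0.45), GSN at 0.83 (SE 0.31) and LAMB2 at 0.88 (SE 0.35). GSN turned to −0.18 when the arrays were centred on their median without loess. MMP23B differed by 1.45 (SE 0.66, limma adjusted p = 0.800) and SPARC by 1.34 (SE 0.60, limma adjusted p = 0.800). Without escaper 2 the median turned to −0.13 with 14 of 39 positive, and without escaper 1 it was 1.58 with 15 matrix genes and 1755 of the 16008 probes past the adjusted threshold, so the direction of this comparison rested on escaper 2.

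Other genes of matrix biology, from a list of 72 that holds the fibrillar collagens, TGF-beta and its binding proteins, collagen-processing enzymes, integrins, ADAMs and cathepsins, were also counted. Of 42 tested, 37 were positive in dystrophic minus normal dogs with a median of 0.44, beside 0.04 over all named genes. Of these 42, 11 were higher at an unadjusted p under 0.05, beside 8.89% of all named genes, and 0 lower, beside 9.84%. The adjusted threshold was passed by 0, beside 0.098%. The 3 with the smallest p were SPP1, osteopontin, at 4.02 (SE 0.93, limma adjusted p = 0.109), COL5A2, a collagen V chain, at 2.32 (SE 0.70, limma adjusted p = 0.150), and P4HB, a subunit of the enzyme that hydroxylates collagen, at 0.68 (SE 0.23, limma adjusted p = 0.183).

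Fibroblast and macrophage markers were highest in the same dogs as these genes, escaper 2 and affected 4. Markers of fibroblasts without the matrix genes themselves, 8 genes all tested, had mean log2 ratios from −0.40 to 0.41 in affected dogs, from −0.28 to 1.20 in escapers and from −0.63 to −0.29 in normal dogs. S100A4 differed by 2.40 between dystrophic and normal dogs (limma adjusted p = 0.136) and PDGFRA by 0.42 (limma adjusted p = 0.284). FAP differed by 1.17 (limma adjusted p = 0.296), DPT by 0.83 and PI16 by 0.24, while THY1 differed by −0.14, PDGFRB by −0.06 and CD34 by 0.05. Macrophage and myeloid markers, 11 tested of 13 on the array, ranged from −1.06 to −0.13 in affected dogs, from −1.08 to 1.0 in escapers and from −1.62 to −1.27 in normal dogs, and all 11 were positive in dystrophic minus normal dogs. LGALS3, galectin 3, differed by 2.51 (limma adjusted p = 0.0537), ITGAM by 0.85 (limma adjusted p = 0.166) and C1QB by 1.19 (limma adjusted p = 0.216). In both lists escaper 2 was the highest dog and affected 4 the second, the order also seen in the median of the 39 matrix genes.

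Muscle fibre markers, 10 tested of 11, had mean log2 ratios from −1.21 to 0.76 in affected dogs, from −1.39 to 0.79 in escapers and from 0.24 to 0.50 in normal dogs. Escaper 2 and affected 1 held the 2 lowest values, the first with the highest and the second with the lowest median of matrix genes among dystrophic dogs. The difference of dystrophic and normal dogs was positive in only 2 of the 10. PYGM differed by −2.08 (limma adjusted p = 0.136), MB, myoglobin, by −1.91 (limma adjusted p = 0.272) and TNNC1 by 0.56 (limma adjusted p = 0.513). Endothelial markers, 7 tested of 9 with TEK above background on no array, ranged from −0.41 to −0.03 in affected dogs, from −0.25 to 0.99 in escapers and from −0.10 to 0.10 in normal dogs, with KDR at −0.66 (limma adjusted p = 0.295), TIE1 at −0.18 and EMCN at 0.23 in dystrophic minus normal dogs. Adipocyte markers, 7 tested of 7, ranged from −0.19 to 0.28 in affected dogs, from 0.24 to 0.25 in escapers and from −0.16 to 0.10 in normal dogs, with CFD at 1.14 (limma adjusted p = 0.188), LPL at −0.55 and FABP4 at 0.38. Smooth muscle and pericyte markers, 4 tested of 7, ranged from −0.31 to 0.11 in affected dogs, from 0.26 to 0.47 in escapers and from 0.10 to 0.30 in normal dogs, with ACTG2 at −0.73, TAGLN at 0.21 and RGS5 at 0.10. Of the T and NK cell markers, 7 were on the array, CD8A was above background on no array, and NKG7 alone was tested, at −1.32 (limma adjusted p = 0.226). The part of any of these cell types in the matrix values was not tested.

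**Figure D5:**
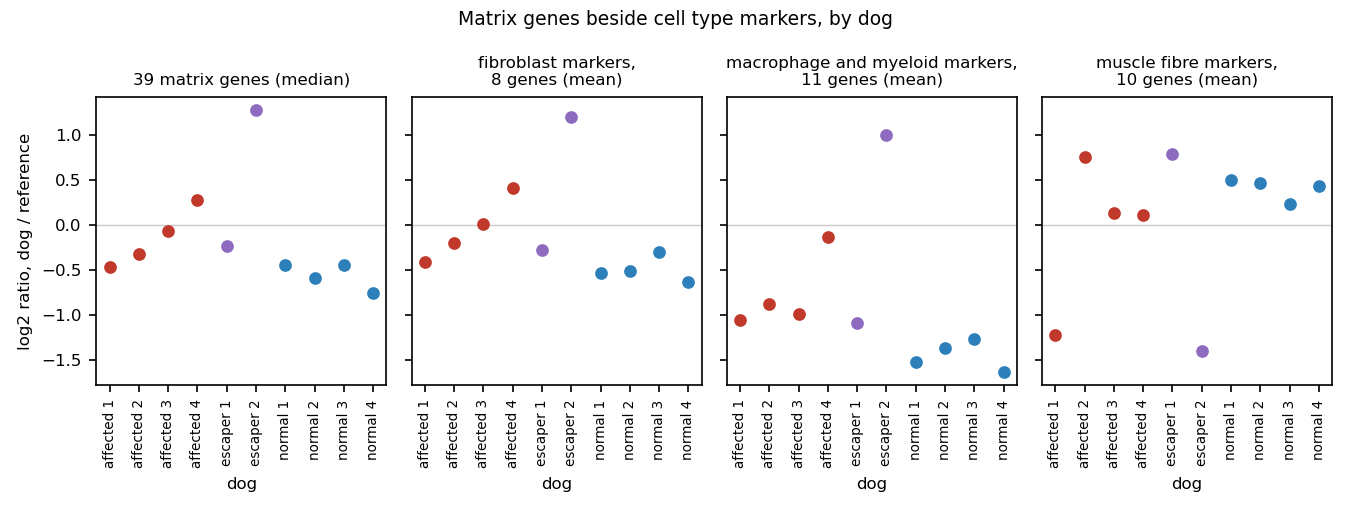
Log2 ratio of dog over reference (vertical axis) in each dog, as the median of 39 matrix genes and as the mean of fibroblast, macrophage and myeloid, and muscle fibre markers; points are dogs, coloured by group. Escaper 2 is highest for matrix, fibroblast and macrophage genes (1.27, 1.20 and 1.0) and lowest for muscle fibre markers (−1.39).

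Among the 40 dim genes, 24 were read above background on the Cy5 array of affected 4, 13 of them on no other array, so single readings there were not counted as expression. Only 4 of the 40 were read on any normal array. Both arrays of escaper 2 read 7 of them, namely ADAMTSL1, COL6A3, FBLN7, LAMA4, MMP12, MMP2 and MMP9, and both arrays of no other dog read any of these 7.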

How the data were processed

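Total RNA of muscle from 10 dogs was measured on 20 canine 2-colour arrays and quantified with version 9.5.3.1 of Agilent's Feature Extraction software. The scanner files hold, per the file headers, the mean and background intensity of each spot in both channels, and the labels give the dye of each dog. The deposited value table of the authors equals the log2 ratio of the processed signals, turned to dog over reference and not centred, and served as an alternative. The genome build of the probe positions is not given in the sources used here.

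Background was corrected by normexp with an offset of 50, ratios were loess-normalized within each array with control spots at weight 0, spots flagged as outliers were left out, saturated spots were kept, and the 2 arrays of a dog were averaged. A dog with a flagged spot kept the value of its other array, where the dye effect does not cancel. The 16008 tested probes had a value in every dog and stood well above background, for the RNA of the dog, on the array pair of at least 2 dogs. The 2 fits were made with limma 3.58.1 in R 4.3.3, over 3 groups and over 6 dystrophic against 4 normal dogs, with Benjamini-Hochberg adjustment over all tested probes and a threshold of 0.05. Each gene is represented by its brightest tested probe. Gene names are those of the array files, updated through RefSeq's canine gene table. Precision is limited by the number of arrays and dogs, by saturated and dim spots, and where probes of a gene disagree.

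The genes, lists and markers were chosen with earlier results of these data known. Genes named were those with the smallest p in each comparison and direction, and a list of well-known members; further members were described by role, or because the groups did not overlap, after their values were seen. The fits were tested on simulated data. Alternatives covered normalization, the value table, the filter on dim probes, slide and dog as random blocks, single dyes, saturated probes and leaving out each dog. The sequence and values of 1 further probe are not reported here.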

Additional observations from a re-analysis of the deposited data

Results flagged for a closer look

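In 54 groups of 4 dogs examined (the affected and the normal dogs, for each gene named by rule), 6 held a dog whose gap to its nearest neighbour was large for the range of the group by Dixon's criterion, which chance gives in about 1 of 20 groups. Affected 1 stood below the other affected dogs at ADAMTSL5 with −0.57, at LAMB2 with −0.74 and at SPARC with −2.11. Affected 4 stood above the other affected dogs at POSTN with 0.87. Among normal dogs, normal 3 stood apart at BGN with 0.0727 and at SPARC with −1.24.

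Some of the genes too dim to be tested were read above background on arrays of dystrophic dogs and on 0 normal arrays. Counting affected and escaper arrays together, MMP9 was read on 4 arrays, and ADAMTSL1, COL2A1, COL6A3, FBLN7, LAMA4, MMP12 and MMP2 on 3 arrays each. Each was read on both arrays of only 1 dog, which was escaper 2 for all but COL2A1. The arrays counted include the Cy5 array of affected 4 for all but FBLN7.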

How the results depend on the processing

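Of 50 values of a named gene in a comparison, 20 kept their direction and their side of the threshold under every alternative run, 18 passed the threshold under at least 1 alternative and 12 turned their sign under at least 1. The cause of these shifts was not tested, apart from leaving out dogs, which lowers the number of samples. The value table gave median differences of the matrix genes of 0.94 for affected minus normal dogs, 1.88 for escaper minus normal and 1.31 for dystrophic minus normal, with 3 matrix genes called in the last, COL12A1 among them although no normal array read it above background. It called 31, 4 and 237 probes in these comparisons. Restricting to probes above background on every array gave medians of 0.94, 1.94 and 1.35 and 34 probes in the last. No filter on dim probes gave medians of 0.17 for escaper minus normal and 0.13 for dystrophic minus normal, with 1 and 11 probes. The slide as a random block (consensus correlation −0.27 in the fit of 3 groups) called 114 probes for affected minus normal, 522 probes and 8 matrix genes for escaper minus normal, and 120 probes for dystrophic minus normal. As each slide held dogs of 1 group, a negative correlation lowers the standard error of group differences, so these calls are not added support. Every array with the dog as a random block called 314, 911 and 796 probes and 1, 13 and 5 matrix genes. That fit counts 20 arrays of 10 dogs and shares a consensus correlation over all probes (0.65 in the fit of 3 groups). Its calls are therefore not added support either. Affected and normal dogs alone called 113 probes and 3 matrix genes. For dystrophic minus normal, median centring called 10 probes, trend and robust variance 6, Cy5 arrays 29, Cy3 arrays 1, and affected 4 by its Cy3 array, chosen after seeing the data, 10. For affected minus normal, Cy5 arrays called 7 probes and Cy3 arrays 1.

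Leaving out 1 dog at a time gave 0 to 113 probes and 0 to 3 matrix genes for affected minus normal, 0 to 3920 probes and 0 to 27 matrix genes for escaper minus normal, 0 to 1755 probes and 0 to 15 matrix genes for escaper minus affected, and 1 to 178 probes and 0 to 3 matrix genes for dystrophic minus normal. The median ran from 0.16 to 2.08 for escaper minus normal and from −0.13 to 1.58 for escaper minus affected.

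GSN in escaper minus affected, 0.83 with loess, turned to −0.18 with median centring. With the value table, COL7A1 was 0.736 in affected minus normal, FBN2 0.0648 in escaper minus normal and TIMP3 0.116 in escaper minus affected. On Cy5 arrays, ADAMTS4 was 0.0109 and LAMA3 0.0897 in affected minus normal. On Cy3 arrays, ADAMTSL5 was 0.0392, FBN2 0.0374 and TIMP3 0.0230 in escaper minus normal, ADAMTSL5 was 0.0445 and TIMP3 0.0050 in escaper minus affected, and ASPN was −0.17 in dystrophic minus normal. Leaving out 1 dog at a time, differences of both signs were found for affected minus normal in ADAMTS4 (−0.131 to 0.0226), COL4A3BP (−0.408 to 0.0257), COL7A1 (−0.162 to 0.0401), LAMA3 (−0.0659 to 0.0375) and LOXL3 (−0.261 to 0.0408). The same held for escaper minus affected in ADAMTSL5 (−0.295 to 0.0259) and TIMP3 (−0.191 to 0.151), for escaper minus normal in ADAMTSL5 (−0.104 to 0.0470), FBN2 (−0.0741 to 0.0278) and TIMP3 (−0.173 to 0.168), and for dystrophic minus normal in ASPN (−0.0786 to 0.165). No paired analysis was possible because the labels give the dogs no replicate numbers shared between groups.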
